A study of Mus musculus with 8 samples.

Results

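The comparison set nascent RNA after 20 min of lipopolysaccharide (LPS, the outer membrane glycolipid of Gram-negative bacteria) against nascent RNA of untreated cells. The cells were bone marrow-derived macrophages from male C57BL/6 mice aged 8 weeks, held in serum-free medium. The untreated group (0 min) received no treatment, and the other group received LPS at 100 ng/ml for 20 min. Each group had 2 biological replicates, and whether a replicate held 1 mouse or a pool is not given in the sources used here. The 4 libraries compared were fitted with the 4 libraries of 60 and 180 min of LPS, which share the estimate of the spread. Replicates were paired by their number. A gene was tested if its FPKM averaged 0.5 or more across those 8 libraries, which held for 8343 of the 22753 genes listed. FPKM are read fragments per kilobase of gene span, scaled to the reads of the library. Each is a mean over the whole span, so levels of short and long genes are not strictly comparable.

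Nascent RNA was measured by GRO-seq, in which isolated nuclei extend the transcripts that polymerases have already begun, in the presence of a labelled nucleotide. The signal over a gene therefore follows engaged polymerase rather than stored mRNA. In macrophages, LPS is handed by CD14 to the receptor complex of TLR4, which signals to NF-kB, held in the cytoplasm by IkB proteins until those are degraded, and through MAP kinases to serum response factor and the AP-1 and CREB families. Genes that are transcribed without new protein synthesis are called immediate early or primary response genes. They encode further transcription factors, cytokines and chemokines, and also the phosphatases, IkB proteins and RNA decay factors that end the response.

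Within 20 min, 192 of the 8343 genes rose, which is 2.3% of the genes tested, and 57 fell, which is 0.683%. Changes are given as log2 units, the fitted difference of log2(FPKM + 0.1) between 20 and 0 min with its standard error, from limma with the replicate number as a block. Calls were made at a Benjamini-Hochberg adjusted p under 0.05. The rises ran from 0.96 to 6.27 log2 units with a median of 1.80, and 79 of them were at least 2 and 20 at least 3 log2 units. The falls ran from -0.93 to -2.74 with a median of -1.34, and 4 were at least 2 log2 units. All 192 genes were higher in both replicate pairs, as were 17.7% of all genes tested, and all 57 were lower in both pairs, as were 63.2% of all genes tested. In 182 of the 192, both 20 min libraries lay above both 0 min libraries (8.39% of all genes tested), and in 52 of the 57 both lay below (29.6%).

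Most of the genes that rose had a modest level before LPS. Their median level was 2.32 FPKM at 0 min and 10.4 FPKM at 20 min, against 1.66 and 1.35 FPKM over all genes tested, and 44 of the 192 were under 1 FPKM at 0 min. At 20 min they made up 30 of the 55 tested genes above 50 FPKM, a level that 17 tested genes passed at 0 min. Of all reads that fell in listed genes, those in these 192 genes took 1.91% and 1.77% at 0 min in replicates 1 and 2, and 8.37% and 6.26% at 20 min. The 192 genes were called from these same 20 min libraries, so their higher level and share at 20 min follow from that choice and only describe its size. FPKM are relative to each library's total. Over all genes tested the change had a median of -0.20 log2 units, -0.267 in replicate pair 1 and -0.13 in pair 2, and every change below is read against that level. After median-ratio scaling, which puts the median at 0.01, 168 genes were called higher and 23 lower. The share of higher genes among the calls was then 88.0% instead of 77.1%. That share depended on the setting. It was 87.9% with a pseudocount of 0.01, 57.85% after quantile normalization and 36.9% with a pseudocount of 1. With limma voom on reads recovered from the FPKM steps it was 28.9%, and with only the 0 and 20 min libraries 26.1%. In bulk libraries, fewer transcribing cells and less transcription per cell cannot be told apart.

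**Figure D1:**
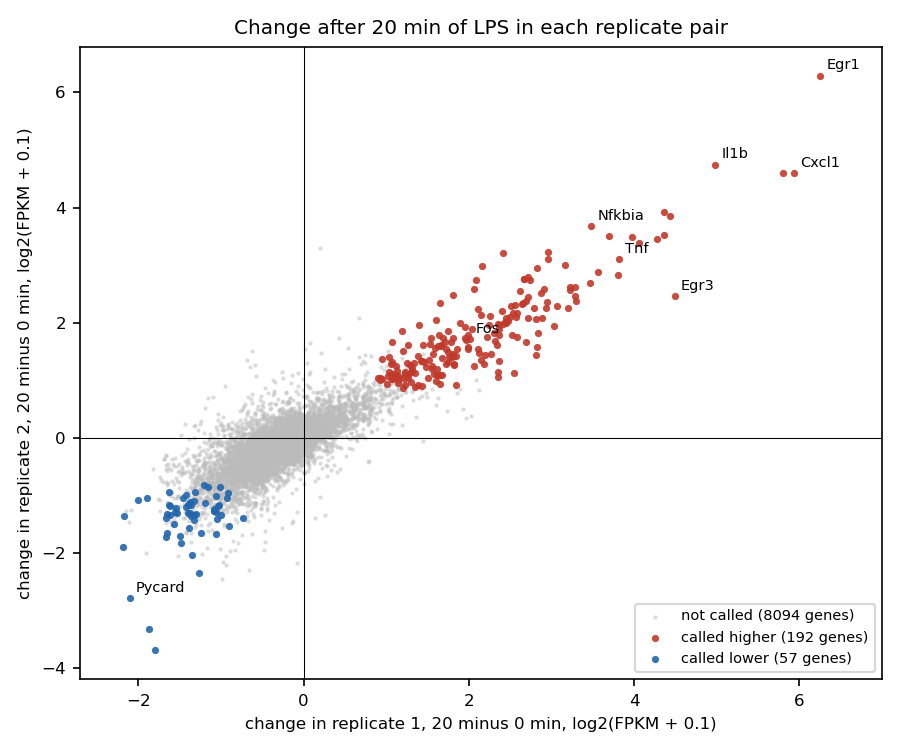
Change of each tested gene at 20 min in replicate pair 1 (x axis) and replicate pair 2 (y axis), as 20 minus 0 min of log2(FPKM + 0.1). Each point is 1 gene, red for the 192 called higher, blue for the 57 called lower and grey for the others. The called genes lie in the upper right and lower left, with Egr1 above 6 log2 units in both pairs.

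The libraries of replicate 1 held 44.4 to 61.2 M reads and those of replicate 2 held 7.96 to 11.1 M, recovered from the steps of the FPKM values. The 4 libraries compared had 61.2 and 56.8 M reads in replicate 1 and 9.17 and 9.14 M in replicate 2, at 0 and 20 min. Low values of replicate 2 therefore rest on few reads. The cells carried macrophage genes: Cd68, a lysosomal glycoprotein of macrophages, was at 35.1 and 23.2 FPKM before and 51.2 and 33.7 FPKM after LPS, and Lyz2, lysozyme of myeloid cells, at 27.6 and 15.2 and then 50.4 and 24.2 FPKM. Neither was called. Both were named for their level and do not stand for the changes of the 25 tested macrophage identity genes. Of those 25, 11 had a positive change, and their median was -0.12. At an unadjusted limma p under 0.05, 7 were higher and 6 lower, against 6.03% and 13.7% of all genes tested. Voom called 7 and 5 of them, against 5.45% and 13.4%. Markers of T and NK, B, dendritic, mast, erythroid and stromal cells were all under the level needed for testing, with sums of at most 1.28 FPKM per list in any of the 4 libraries. The sum of the 8 listed neutrophil markers was 2.38 and 6.78 FPKM before and 2.49 and 7.23 FPKM after LPS, higher in replicate 2 at both times.

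The fit without the replicate number called 9 genes higher and 0 lower. These were Egr1, Cxcl1, Il1b, Tnfsf9, Tnfaip3, Nfkbiz, Nfkbia, Nlrp3 and Sod2. All other calls below rest on comparing libraries within a replicate number, and their adjusted p without the block was above 0.05. At an unadjusted p under 0.05, that fit held 234 genes higher and 264 lower. When each of the 8 libraries was left out in turn, 65 of the higher genes kept the call every time and 2 of the lower genes did. The count of higher genes was smallest, at 67, without 20 min replicate 1, where 6 were lower. It was 123 (34 lower) without 20 min replicate 2, and 149 (70 lower) and 144 (9 lower) when replicate 1 or 2 of 0 min was omitted. Below, "in every left-out fit" means that a gene kept its call in all 8, and a called gene not said to have done so lost it in at least 1. Of the 112 called genes named here, 58 lost the call without 20 min replicate 1 and 26 did so without 20 min replicate 2. The corresponding numbers for the 0 min libraries were 21 and 27. Across the 463 different genes of the lists below, the 1 called lower was Pycard, where 0.683% of all genes tested were. In the lists 31 were lower at an unadjusted p under 0.05 and 22 by limma voom on recovered reads, against 13.7% and 13.4% of all genes tested.

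Promoter sequences of some of the genes that rose are shown first, because each carries a motif of one of the transcription factor families named above close to the start site. They are upstream stretches that end at the base before the annotated start, from the RefSeq promoter table of build GRCm38.p6, whereas gene coordinates elsewhere are those of the deposited table on mm9. Each is written 5′ to 3′ on the gene's own strand, with motif matches in capitals. The stretches are Cxcl1 at chr5:90891145-90891244 (plus strand), Cxcl2 at chr5:90903779-90903898 (plus), Nfkbia at chr12:55492648-55492727 (minus), Tnfaip3 at chr10:19015411-19015560 (minus) and Sod2 at chr17:13007739-13007838 (plus), in which the capitals mark the kappaB motif, the sequence bound by NF-kB dimers.
Cxcl1: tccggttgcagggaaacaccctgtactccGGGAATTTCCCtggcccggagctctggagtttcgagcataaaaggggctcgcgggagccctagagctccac
Cxcl2: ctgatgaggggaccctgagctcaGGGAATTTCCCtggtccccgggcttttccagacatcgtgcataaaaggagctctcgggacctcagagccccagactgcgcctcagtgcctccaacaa
Nfkbia: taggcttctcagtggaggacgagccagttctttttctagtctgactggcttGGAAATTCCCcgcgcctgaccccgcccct
Tnfaip3: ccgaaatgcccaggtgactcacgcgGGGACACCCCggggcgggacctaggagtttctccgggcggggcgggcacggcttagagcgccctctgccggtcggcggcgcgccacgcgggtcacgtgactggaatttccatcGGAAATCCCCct
Sod2: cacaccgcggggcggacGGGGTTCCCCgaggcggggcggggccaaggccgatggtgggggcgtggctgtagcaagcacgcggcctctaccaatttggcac
The motif lay 71 to 61 bases before the start of Cxcl1 and 97 to 87 bases before that of Cxcl2, and in both these stretches hold 2 overlapping matches, on opposite strands. In Nfkbia it lay 29 to 20 bases before the start, in Sod2 83 to 74, and in Tnfaip3 at 125 to 116 and again at 12 to 3.

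In Zfp36 at chr7:28379229-28379308 (minus) and Dusp5 at chr19:53529045-53529144 (plus), the capitals mark the CArG box, the sequence bound by serum response factor. In Dusp1 at chr17:26508473-26508632 (minus) and Btg2 at chr1:134079156-134079335 (minus), they mark TGACGTCA, the cyclic AMP response element (CRE) bound by CREB and ATF proteins.
Zfp36: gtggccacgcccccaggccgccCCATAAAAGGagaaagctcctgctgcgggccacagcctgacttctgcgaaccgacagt
Dusp5: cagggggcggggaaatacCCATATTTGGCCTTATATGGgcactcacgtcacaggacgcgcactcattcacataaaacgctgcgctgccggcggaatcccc
Dusp1: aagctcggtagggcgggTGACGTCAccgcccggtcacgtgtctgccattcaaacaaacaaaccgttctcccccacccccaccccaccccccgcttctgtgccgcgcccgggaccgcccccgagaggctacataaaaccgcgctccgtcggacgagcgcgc
Btg2: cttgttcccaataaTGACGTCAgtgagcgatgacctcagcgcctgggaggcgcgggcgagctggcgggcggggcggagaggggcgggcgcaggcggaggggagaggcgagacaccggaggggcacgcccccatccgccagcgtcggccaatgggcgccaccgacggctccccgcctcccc
Dusp5 carries 2 CArG boxes side by side, 82 to 73 and 72 to 63 bases before its start. The shares of all promoters that hold these motifs are given with the promoter results.

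Immediate early transcription factors of the Egr family gave the largest rise. Egr1, a zinc finger factor induced by growth factors and stress (mm9, chromosome 18, 35020861 to 35024610), stood at 1.11 and 1.14 FPKM before LPS (here and below replicate 1 is given first), and at 92.1 and 96.4 FPKM after 20 min. That is 83.1-fold in pair 1 and 84.9-fold in pair 2, a change of 6.27 ± 0.32 (adjusted p = 0.000116), and the pairs hardly differed. Egr3 was at 0.169 and 0.080 FPKM before and 5.95 and 0.888 FPKM after LPS, a change of 3.47 ± 0.52 (adjusted p = 0.00779) in which replicate 1 moved by more. Its value at 0 min in replicate 2 was made of 2 reads. Outside the 20 min group, no library had Egr3 above 0.189 FPKM. Egr3 thus reached the mean of 0.5 FPKM needed for testing only through its 20 min values, the same values that were then tested. Egr2 went from 5.62 and 2.12 to 35.0 and 12.9 FPKM (2.59 ± 0.38, adjusted p = 0.00727). In each of the 3 genes both 20 min libraries lay above both 0 min libraries.

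Of the Egr, Nr4a and serum response list, 13 of 25 tested genes rose (52%) and 0 fell, against 2.3% and 0.683% of all tested. The median change over the 25 was 1.14. Ier3, a short-lived regulator of survival, rose from 10.1 and 5.46 to 63.6 and 27.8 FPKM (2.49 ± 0.22, adjusted p = 0.00067). Btg2, an antiproliferative cofactor whose promoter is shown above, rose from 25.7 and 15.5 to 90.7 and 86.8 FPKM (2.15 ± 0.30, adjusted p = 0.00546). The other members that rose were the orphan nuclear receptor Nr4a1, Ppp1r15a, Errfi1, Ier2, Ets2, Plk2, Klf6 and Ier5, from 0.99 for Ier5 to 2.49 for Nr4a1. Klf6, Plk2 and Ier5 lost the call after median-ratio scaling (adjusted p = 0.0789, 0.0818 and 0.067) and quantile normalization (0.422, 0.292 and 0.204). Gadd45b, a stress sensor, was at 28.6 and 19.8 and then 91.9 and 51.8 FPKM, and Mcl1, an antiapoptotic protein, at 41.9 and 35.4 and then 94.2 and 76.5 FPKM, and neither passed the test (adjusted p = 0.0797 and 0.0519). Egr1, Ier3 and Ier2 kept the call in every left-out fit, while Egr2, Egr3 and Btg2 lost it in at least 1, at adjusted p up to 0.0698, 0.058 and 0.0504. The library omitted at these values was 20 min replicate 1 for Egr2 and Btg2 and 180 min replicate 2 for Egr3.

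The AP-1 family, dimers of Fos, Jun, Maf and ATF proteins, had 14 tested members, with a median change of 0.62. Of these, 4 rose (28.6%) and 0 fell, against 2.3% and 0.683% of all genes tested. Fos (chromosome 12, 86814851 to 86818219) was already transcribed before LPS, at 34.7 and 46.1 FPKM, and stood at 140 and 152 FPKM after 20 min, a change of 1.86 ± 0.27 (adjusted p = 0.00618). Its dimer partner Jun was at 19.0 and 26.1 and then 49.7 and 70.3 FPKM (1.40 ± 0.20, adjusted p = 0.00618), and Junb at 23.0 and 23.4 and then 123 and 93.1 FPKM (2.20 ± 0.26, adjusted p = 0.00257). Maff, a small Maf protein without an activation domain of its own, had the largest rise of the list, from 0.617 and 0.316 to 6.62 and 2.36 FPKM (2.90 ± 0.25, adjusted p = 0.00067). No 20 min library of these 4 genes was as low as a 0 min library. Atf3, a repressor of inflammatory genes, was at 34.9 and 16.5 FPKM before and 69.9 and 39.4 FPKM after (adjusted p = 0.119), and Atf4, the effector of the integrated stress response, at 42.1 and 41.4 and then 52.3 and 54.2 FPKM (adjusted p = 0.463). Maff and Junb kept the call in every left-out fit. Fos and Jun lost it in at least 1, reaching adjusted p = 0.0584 and 0.0986 in the fit that omitted 20 min replicate 1, and Jun was not called after quantile normalization (adjusted p = 0.0785).

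The genes of NF-kB itself were the list with the highest share of calls: 10 of 11 rose (90.9%, against 2.3% of all genes tested). The median change was 1.98. Nfkbiz and Nfkbia had the highest changes of the list. Nfkbia, which encodes IkB alpha, the protein that returns NF-kB to the cytoplasm (chromosome 12, 56590396 to 56593634, promoter above), was at 17.3 and 14.9 FPKM before LPS and 195 and 191 FPKM after it. The change of 3.58 ± 0.23 (adjusted p = 0.000226) was 11.3-fold in pair 1 and 12.9-fold in pair 2. Nfkbiz, a nuclear IkB protein that serves as a cofactor at secondary genes such as Il6, rose from 4.48 and 3.84 to 59.3 and 44.9 FPKM (3.60 ± 0.25, adjusted p = 0.000245). Nfkbib, which encodes IkB beta, rose from 1.60 and 0.857 to 8.85 and 4.29 FPKM (2.30 ± 0.25, adjusted p = 0.00164). In all 3 the groups were apart by more than 2-fold between the highest 0 min and the lowest 20 min library.

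Among the DNA-binding subunits, Nfkb2 rose from 2.72 and 1.47 to 14.3 and 6.07 FPKM (2.17 ± 0.24, adjusted p = 0.00191). Rel, Relb and Rela rose by 1.83, 1.77 and 1.23, and the inhibitors and cofactors Nfkbie, Bcl3 and Nfkbid by 2.15, 1.98 and 1.30. Nfkb1, which encodes p105 and p50 and spans over 100 kb, was the exception, at 1.74 and 2.25 FPKM before and 3.07 and 2.89 FPKM after LPS (0.57 ± 0.22, adjusted p = 0.203). Both its 20 min libraries lay above both 0 min libraries, and its mean was 17.1 FPKM at 60 min. Nfkbia, Nfkbiz, Nfkbib, Nfkbie and Nfkb2 kept the call in every left-out fit. Without 20 min replicate 1 the adjusted p rose to 0.426 for Nfkbid, 0.341 for Rela, 0.114 for Relb, 0.0745 for Rel and 0.0513 for Bcl3. Rela and Nfkbid also lost the call after median-ratio scaling (adjusted p = 0.0669 and 0.0706). Nfkb2 and Nfkbib overlap another listed gene, and because strand handling is not given, their reads cannot be assigned with certainty.

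Feedback adaptors and enzymes of the NF-kB pathway, 21 genes tested, had a median change of 0.59. Of these genes, 9 rose (42.9%) and 0 fell, against 2.3% and 0.683% of all genes tested. Tnfaip3, which encodes A20, the ubiquitin-editing enzyme that shuts down signalling to NF-kB (chromosome 10, 18720717 to 18735216, promoter above), stood at 3.90 and 3.72 FPKM before and 66.8 and 39.7 FPKM after LPS (3.72 ± 0.25, adjusted p = 0.000244). Tnfaip2 rose from 19.8 and 8.91 to 113 and 43.8 FPKM (2.40 ± 0.26, adjusted p = 0.00164), and Tnip3, an A20-binding protein, from 7.83 and 15.9 to 43.8 and 65.1 FPKM (2.25 ± 0.30, adjusted p = 0.00449). Traf1, an adaptor of TNF receptors, rose from 1.94 and 1.62 to 8.70 and 8.04 FPKM (2.17 ± 0.26, adjusted p = 0.00257). The remaining members that rose were the kinases Pim1 and Ripk2, the A20 partner Tnip1, the ubiquitin ligase Birc3 and Tank, by 1.15 for Ripk2 to 2.14 for Pim1. After median-ratio scaling Ripk2 and Tank were not called (adjusted p = 0.0617 and 0.0614). Tnfaip3, Tnfaip2 and Traf1 kept the call in every left-out fit, and Tnip3 reached an adjusted p of 0.0511 without 20 min replicate 1.

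Of the 20 cytokine and growth factor genes tested, 6 rose (30%) and 0 fell, against 2.3% and 0.683% of all genes tested. The list's median change was 0.81. Tnf, the first cytokine released by macrophages after LPS (chromosome 17, 35336312 to 35338952), was transcribed at 30.8 and 52.2 FPKM before LPS and at 436 and 451 FPKM after 20 min, a change of 3.46 ± 0.27 (adjusted p = 0.000458). That is 14.1-fold in pair 1 and 8.64-fold in pair 2. Il1b, the pyrogenic interleukin that needs cleavage by an inflammasome, went from 0.422 and 0.233 to 16.4 and 8.82 FPKM (4.86 ± 0.36, adjusted p = 0.000264), with 14 reads behind its lowest value. Tnfsf9, the ligand of the costimulatory receptor 4-1BB, went from 3.47 and 3.17 to 76.8 and 47.2 FPKM (4.14 ± 0.30, adjusted p = 0.000264). Gdf15, a stress-induced member of the TGF-beta family, rose from 12.8 and 6.72 to 84.3 and 37.1 FPKM (2.58 ± 0.31, adjusted p = 0.00257). The groups did not overlap in any of these 4 genes, and all 4 kept the call in every left-out fit.

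The receptor antagonist Il1rn and the interleukin Il1a rose by 2.08 and 1.64. Il1a remained low, at 0.057 and 0.042 FPKM before and 0.358 and 0.370 FPKM after LPS, and its call was lost in 5 left-out fits, with an adjusted p of 0.307 when 20 min replicate 1 was omitted. It was not called after median-ratio scaling or quantile normalization either (adjusted p = 0.0891 and 0.0826). Il10, the anti-inflammatory interleukin, stood at 1.59 and 1.96 and then 4.15 and 3.78 FPKM and did not pass (adjusted p = 0.0675). Il6, a secondary response cytokine, had values of 0.024 and 0 FPKM before and 0.044 and 0.177 FPKM after LPS, from 10, 0, 17 and 11 reads (adjusted p = 0.249). Ifnb1, the gene of interferon beta, was listed at 0 in all 4 libraries, while its mean was 1.88 FPKM at 60 min. Il1a, Il1b and Tnfsf9 overlap listed antisense or predicted genes, from whose reads theirs cannot be told apart.

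Chemokines, the secreted attractants of leukocytes, had 17 tested members, with a median change of 1.82. Of these, 9 rose (52.9%) and 0 fell, against 2.3% and 0.683% of all genes tested. The neutrophil attractants Cxcl1 and Cxcl2, neighbours on chromosome 5 (91320271 to 91322141 and 91332925 to 91334964), rose most. Cxcl1 went from 1.01 and 1.40 to 68.2 and 36.2 FPKM (5.27 ± 0.32, adjusted p = 0.000226). Cxcl2 went from 5.33 and 18.7 to 302 and 456 FPKM (5.20 ± 0.37, adjusted p = 0.000245). In both, pair 1 changed by more than pair 2, at 67.3- and 25.8-fold for Cxcl1 and 56.7- and 24.3-fold for Cxcl2. At 20 min Cxcl2 was the higher of the pair in both replicates, as it was at 0 min.

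Chemokines for monocytes and T cells had smaller fitted changes. Ccl4 was at 19.8 and 20.4 FPKM before and 95.6 and 88.2 FPKM after LPS (2.19 ± 0.23, adjusted p = 0.0016), and Ccl9 at 28.4 and 23.4 and then 135 and 91.7 FPKM (2.10 ± 0.26, adjusted p = 0.00257). Ccl3, the neighbour of Ccl4, was at 32.8 and 41.4 and then 135 and 153 FPKM (1.96 ± 0.24, adjusted p = 0.00272). The groups were separate in all 3. Ccl2, Cxcl16 and Ccl7 rose by 1.98, 1.94 and 1.82. Cxcl10, the interferon-inducible attractant of T cells, rose from 0.494 and 2.96 to 3.38 and 6.57 FPKM (1.84 ± 0.31, adjusted p = 0.0168), with the 0 min value of replicate 2 close to the 20 min value of replicate 1. Without 20 min replicate 1 its adjusted p was 0.22, whereas Cxcl1, Cxcl2, Ccl2, Ccl3, Ccl4 and Ccl9 kept the call in every left-out fit. Cxcl10 and Cxcl16 overlap the listed genes Art3 and Zmynd15, from whose reads theirs cannot be told apart.

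**Figure D2:**
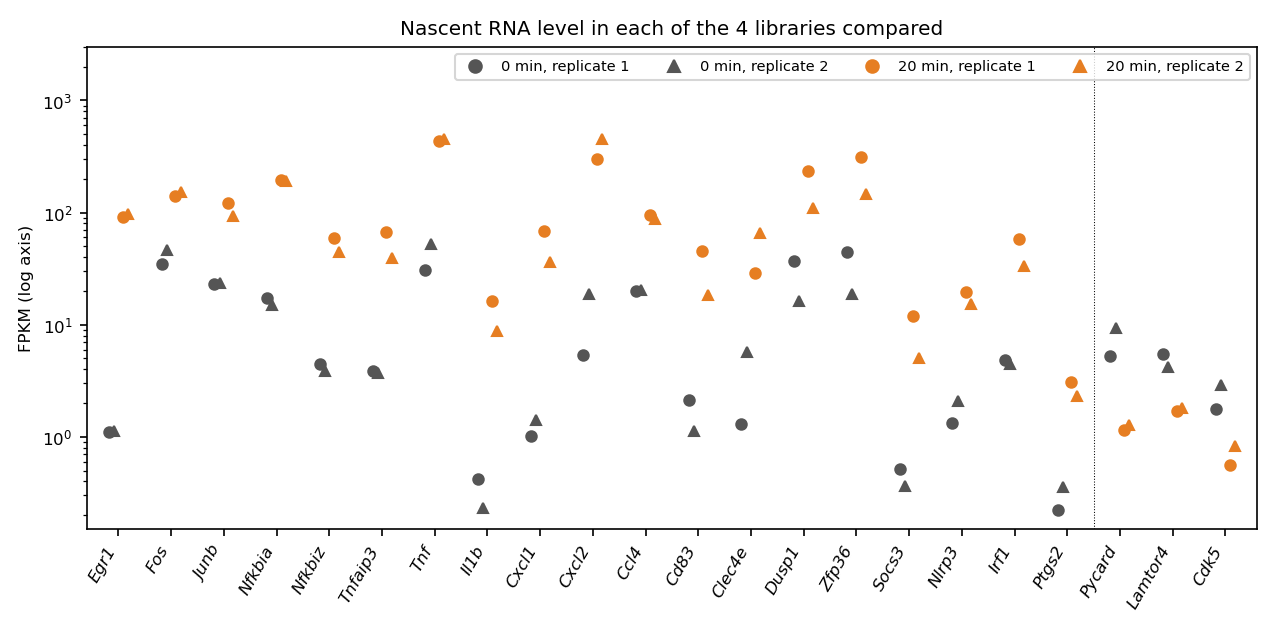
Level of 22 genes in each of the 4 libraries compared, as FPKM on a log axis. Grey marks 0 min and orange 20 min, circles replicate 1 and triangles replicate 2, and genes right of the dotted line fell. In each gene shown, both 20 min libraries lie on the same side of both 0 min libraries, a condition for naming those right of the dotted line.

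Of 29 tested genes of LPS and Toll-like receptor signalling, 2 rose (6.9%, against 2.3% of all genes tested) and 0 fell, with a median change of -0.11, near the -0.20 of all genes (0.09 after median-ratio scaling). Tlr2, the receptor of bacterial lipoproteins, rose from 2.29 and 1.45 to 17.5 and 6.44 FPKM (2.48 ± 0.26, adjusted p = 0.00151). Cd14, the coreceptor that hands LPS to TLR4, rose from 14.4 and 12.4 to 74.2 and 46.3 FPKM (2.13 ± 0.25, adjusted p = 0.00257). Both kept the call in every left-out fit. Tlr4, the signalling receptor for LPS, was at 5.06 and 5.59 FPKM before and 2.48 and 3.64 FPKM after, with no call (adjusted p = 0.14). Both its 20 min libraries lay below both 0 min libraries, as in 9 of the 29 genes of the list and 29.6% of all genes tested.

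Receptors for costimulation, adhesion and lectin binding had 9 of 19 that rose (47.4%) and 0 that fell, with a median change of 1.10. Over all genes tested the shares were 2.3% and 0.683%. Cd83, a surface marker of activated antigen-presenting cells, went from 2.12 and 1.13 to 45.6 and 18.5 FPKM (4.14 ± 0.35, adjusted p = 0.00065). Clec4e, which encodes Mincle, a receptor of mycobacterial glycolipid, went from 1.30 and 5.66 to 28.8 and 66.0 FPKM (3.94 ± 0.36, adjusted p = 0.000783). Sdc4, a heparan sulfate proteoglycan, went from 5.38 and 3.23 to 86.0 and 37.4 FPKM (3.73 ± 0.25, adjusted p = 0.000226). Icam1, the adhesion ligand of leukocyte integrins, went from 3.77 and 3.07 to 28.9 and 19.0 FPKM (2.75 ± 0.25, adjusted p = 0.000783). Each was several-fold above its 0 min libraries in both 20 min libraries. Cd40, Cd69, Itga5, Plaur and Clec4d rose by 2.43, 2.33, 1.63, 1.51 and 1.35. The first 4 named, with Cd40 and Cd69, kept the call in every left-out fit, whereas Clec4d, the neighbour of Clec4e, reached an adjusted p of 0.348 without 20 min replicate 1 and was not called after quantile normalization (adjusted p = 0.175).

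Genes that limit the response rose in the same interval. Of 14 tested dual specificity phosphatases and mRNA decay factors, 8 rose (57.1%) and 0 fell, with a median change of 1.37. The shares over all genes tested were 2.3% and 0.683%. Dusp1, the nuclear phosphatase of p38 and JNK (chromosome 17, 26642536 to 26645417, promoter above), went from 37.2 and 16.2 to 237 and 110.3 FPKM (2.71 ± 0.26, adjusted p = 0.00109). Zfp36, which encodes tristetraprolin, the protein that marks Tnf mRNA for decay (chromosome 7, 29161803 to 29164247, promoter above), went from 44.1 and 18.9 to 314 and 147 FPKM (2.89 ± 0.31, adjusted p = 0.00166). In both genes replicate 1 was above replicate 2 at either time, while the groups did not overlap.

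Dusp5, a nuclear phosphatase of ERK whose promoter holds the paired CArG boxes, went from 1.02 and 1.62 to 10.2 and 8.06 FPKM (2.72 ± 0.26, adjusted p = 0.00109). Dusp2 went from 4.68 and 0.787 to 36.9 and 8.19 FPKM (3.09 ± 0.43, adjusted p = 0.00548), with 16 reads behind the lowest value. Dusp4, Dusp8, Zc3h12c and Zc3h12a, the last encoding the RNase Regnase-1, rose by 2.07, 1.7, 1.65 and 1.09. Zfp36l2, a relative of Zfp36, was at 37.7 and 33.4 and then 24.8 and 23.9 FPKM and was not called (adjusted p = 0.261). Dusp1, Dusp5 and Zfp36 kept the call in every left-out fit. Dusp2 reached an adjusted p of 0.0664 and Zc3h12a 0.397 without 20 min replicate 1, and the 0 and 20 min libraries of Zc3h12a overlapped. Zc3h12a was not called after median-ratio scaling (adjusted p = 0.0685).

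Of 17 other tested genes of signalling control, 5 rose (29.4%) and 0 fell, against 2.3% and 0.683% of all genes tested. The list's median change was 0.55. Socs3, the inhibitor of the interleukin-6 receptor, rose from 0.518 and 0.366 to 11.8 and 5.0 FPKM (3.86 ± 0.26, adjusted p = 0.000226), with 11 reads behind the lowest value. Pde4b, a phosphodiesterase of cyclic AMP, rose from 0.557 and 0.968 to 6.29 and 6.43 FPKM (2.95 ± 0.26, adjusted p = 0.000738). Gpr84, a receptor of medium-chain fatty acids, rose from 0.720 and 2.08 to 6.29 and 18.7 FPKM (3.04 ± 0.32, adjusted p = 0.00151). All 3 kept the call in every left-out fit and had separate groups. Rasgef1b and Phlda1 rose by 2.22 and 1.44, and Phlda1 was not called after median-ratio scaling (adjusted p = 0.0553). Rgs1, a GTPase activator for G proteins, stood at 52.3 and 65.3 and then 117 and 124 FPKM and did not pass (adjusted p = 0.111).

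Inflammatory effectors and inflammasome genes divided. Of 21 tested, 6 rose (28.6%) and 1 fell, against 2.3% and 0.683% of all genes tested, with a median change of 0.51. Nlrp3, the sensor of the inflammasome that matures interleukin-1 beta (chromosome 11, 59356188 to 59380458), went from 1.32 and 2.08 to 19.8 and 15.4 FPKM (3.32 ± 0.28, adjusted p = 0.00065). Pycard, which encodes ASC, the adaptor between that sensor and caspase-1 (chromosome 7, 135134887 to 135137381), went from 5.30 and 9.36 to 1.16 and 1.27 FPKM (-2.44 ± 0.30, adjusted p = 0.00281). Both genes had separate groups, which was a condition for naming Pycard. Both kept their calls in every left-out fit, Pycard at adjusted p up to 0.0361.

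Irg1, Ptgs2 and Sod2 kept the call in every left-out fit. Irg1, which makes itaconate, went from 0.867 and 3.07 to 8.59 and 25.3 FPKM (3.09 ± 0.33, adjusted p = 0.00164). Ptgs2, the inducible cyclooxygenase, went from 0.224 and 0.360 to 3.07 and 2.30 FPKM (2.84 ± 0.30, adjusted p = 0.0016). Sod2, the mitochondrial superoxide dismutase whose promoter is shown above, went from 1.94 and 1.51 to 12.8 and 10.8 FPKM (2.71 ± 0.22, adjusted p = 0.000485). Marcksl1 and Casp4, the sensor caspase of cytosolic LPS, rose by 2.26 and 1.81 and were not called without 20 min replicate 1 (adjusted p = 0.0518 and 0.0986).

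Among 17 survival and death genes, 4 rose (23.5%) and 0 fell, against 2.3% and 0.683% of all genes tested. The list's median change was 0.11. Cflar, which encodes the caspase-8 inhibitor c-FLIP, rose from 5.55 and 6.75 to 21.7 and 22.8 FPKM (1.84 ± 0.21, adjusted p = 0.00191), and Bcl2l11, which encodes the proapoptotic BIM, from 4.56 and 4.84 to 23.9 and 19.2 FPKM (2.16 ± 0.25, adjusted p = 0.00245). The listed span of Bcl2l11 was 2570 bases. Pmaip1, the proapoptotic NOXA, rose from 1.62 and 1.02 to 4.58 and 3.32 FPKM (1.53 ± 0.26, adjusted p = 0.0153) and the death receptor Fas from 0.325 and 0.245 to 0.825 and 0.720 FPKM (1.19 ± 0.24, adjusted p = 0.0359). Members that promote and members that block death thus rose side by side. The calls of Cflar and Bcl2l11 held in every left-out fit, while the adjusted p reached 0.095 for Pmaip1 without 20 min replicate 2 and 0.265 for Fas without 20 min replicate 1.

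Of 20 tested repressors and cofactors of transcription, 4 rose (20%) and 0 fell, against 2.3% and 0.683% of all genes tested. The list's median change was 0.27. Irf1, the interferon regulatory factor that acts on secondary genes, went from 4.86 and 4.49 to 58.3 and 33.5 FPKM (3.22 ± 0.31, adjusted p = 0.00109). Id3, an inhibitor of helix-loop-helix factors, went from 2.33 and 0.973 to 12.1 and 3.35 FPKM (2.00 ± 0.22, adjusted p = 0.00186). Both kept the call in every left-out fit. Prdm1, the repressor Blimp-1, rose by 1.89 and Id2 by 1.37, and they lost the call in at least 1 fit, with adjusted p of 0.0999 (20 min replicate 1 omitted) and 0.376 (0 min replicate 2 omitted). Id2 was not called after median-ratio scaling or quantile normalization (adjusted p = 0.0702 and 0.11). Cebpb, an activator of inflammatory genes, was at 19.2 and 7.62 and then 42.5 and 14 FPKM, with overlapping groups (adjusted p = 0.0505).

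Of 36 interferon-stimulated genes, 0 passed limma in either direction (2.98% of all genes tested did). An unadjusted p under 0.05 was reached by 3 higher and 5 lower, against 6.03% and 13.7% of all genes tested, and voom called 3 and 2, against 5.45% and 13.4%. Their list had a median change of -0.21, which became 0.01 after median-ratio scaling. The examples Irf9, a subunit of the interferon-stimulated factor ISGF3, at 9.03 and 6.41 and then 6.57 and 5.70 FPKM, and Parp14, at 4.12 and 5.83 and then 4.28 and 6.40 FPKM, overlapped between groups. Of 25 macrophage identity genes 1 rose (4%, against 2.3% of all genes tested), the transcription factor Tfec, from 0.775 and 1.17 to 2.79 and 3.0 FPKM (1.50 ± 0.29, adjusted p = 0.0268, and 0.311 without 20 min replicate 1), and the list's median of -0.12 turned to 0.11 after median-ratio scaling. Of 28 genes of transcription elongation control 1 rose (3.57%), Ccnl1, a cyclin of splicing kinases, from 10.1 and 9.44 to 25.4 and 21.3 FPKM (1.24 ± 0.23, adjusted p = 0.0222). It was not called after median-ratio scaling (adjusted p = 0.067), where the list's median of -0.12 became 0.10.

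Of 28 G protein-coupled receptors 3 rose (10.7%, against 2.3% of all genes tested), Gpr84, described above, Gpr132 and Gpr65, with a median change of 0.05. Gpr132 went from 1.97 and 0.913 to 12.9 and 5.01 FPKM (2.50 ± 0.21, adjusted p = 0.00065), in every left-out fit, and Gpr65, a proton sensor, from 1.97 and 2.09 to 4.13 and 4.75 FPKM (1.09 ± 0.20, adjusted p = 0.0249, and 0.312 without 0 min replicate 2). Of 19 lipid and cholesterol genes 1 rose (5.26%), Insig1, a brake on cholesterol synthesis, from 7.84 and 6.38 to 17.5 and 12.4 FPKM (1.05 ± 0.20, adjusted p = 0.0288), and it was not called without 20 min replicate 1 (adjusted p = 0.401) or after median-ratio scaling (adjusted p = 0.057).

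Genes of general cell upkeep served as a comparison. None of 37 cytosolic ribosomal protein genes (median change 0.05), 29 subunits of oxidative phosphorylation (-0.43) and 19 genes of the actin cytoskeleton (0.19) passed limma, where 2.98% of all genes tested did, and none did after median-ratio scaling or quantile normalization. At an unadjusted p under 0.05, the counts higher and lower were 1 and 0, 0 and 7, and 3 and 1 in these lists (6.03% and 13.7% over all genes tested), and voom called 0 and 0, 0 and 5, and 2 and 0 (5.45% and 13.4%). Of the 29 respiratory subunits, 28 had a negative change, as did 75.5% of all genes tested, and in 16 both 20 min libraries lay below both 0 min libraries, against 29.6% of all genes tested. Their median was still below 0, at -0.21, after median-ratio scaling. All tested genes under 10 kb had a median change of -0.35 before that scaling, and span was not matched in these comparisons. Actb, the cytoplasmic actin, was at 55.6 and 39.2 FPKM before and 78.6 and 51.9 FPKM after LPS, with overlapping groups and no call (adjusted p = 0.389), and its change was negative after quantile normalization.

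**Figure D3:**
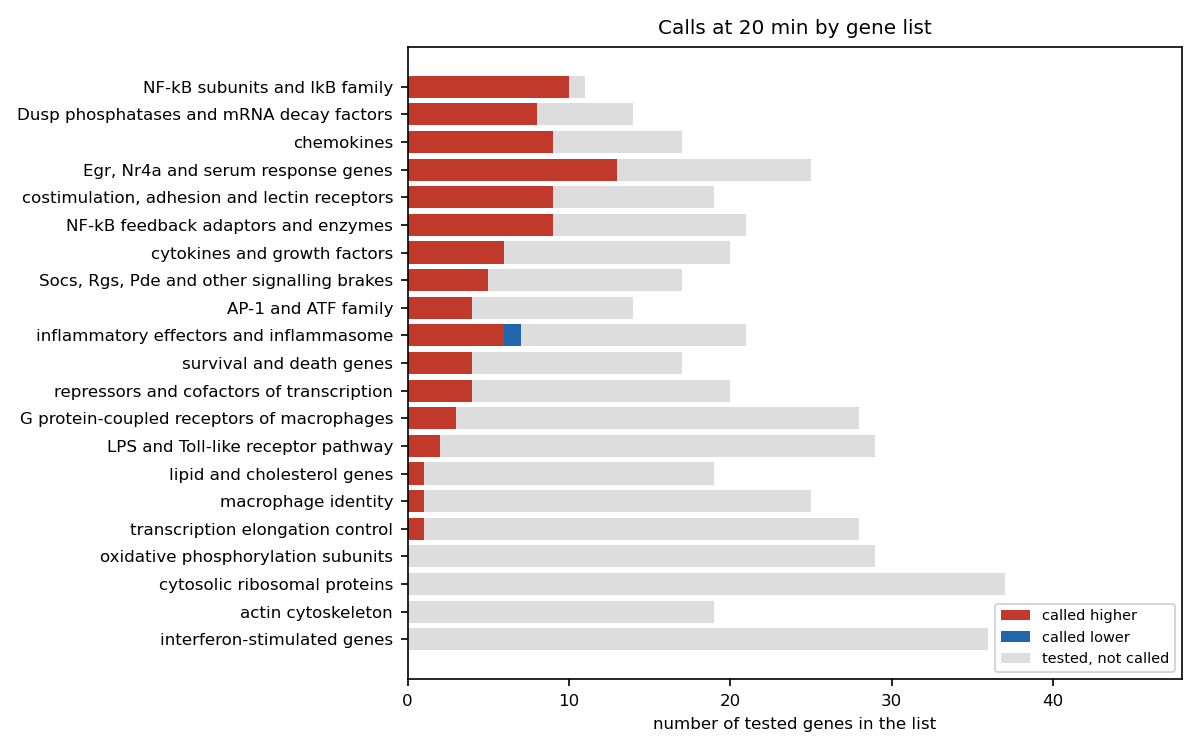
Number of tested genes in each of 21 lists (x axis) that were called higher (red), called lower (blue) or not called (grey) at 20 min. The NF-kB list has 10 of 11 called higher, and the list of effectors holds the 1 called lower, Pycard.

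Of the 57 genes that fell, 1 lay in a list, Pycard, and 56 lay in none. The lists hold 5.55% of all genes tested. Lamtor4, a subunit of the lysosomal Ragulator complex, fell from 5.47 and 4.18 to 1.7 and 1.82 FPKM (-1.40 ± 0.26, adjusted p = 0.0233). Lpar5, a receptor of lysophosphatidic acid, fell from 2.52 and 1.87 to 0.482 and 0.674 FPKM (-1.76 ± 0.36, adjusted p = 0.0381), and Cdk5, a kinase best known from neurons, from 1.76 and 2.91 to 0.559 and 0.828 FPKM (-1.60 ± 0.31, adjusted p = 0.0288). Eid1, an inhibitor of p300 acetyltransferase, fell from 9.36 and 17.5 to 3.10 and 6.11 FPKM (-1.53 ± 0.32, adjusted p = 0.0428), and Trim65, a ubiquitin ligase, from 4.97 and 2.60 to 1.55 and 0.971 FPKM (-1.48 ± 0.27, adjusted p = 0.0242). Each had both 20 min libraries below both 0 min libraries, which was a condition for naming these genes and held for 29.6% of all genes tested. Lpar5 had means of 0.578, 0.082 and 0.058 FPKM at 20, 60 and 180 min. It thus reached the mean of 0.5 FPKM needed for testing only through its 0 min values, which were then tested. Eid1 overlaps the listed gene Shc4, and their reads cannot be told apart.

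Oxld1, Zbtb12, Fam212a and Tmem107 also fell, by 1.80, 1.66, 1.42 and 1.35 on the log2 scale, with 6, 22, 8 and 17 reads behind their lowest values. Tmem107, with means of 0.828, 0.359 and 0.226 FPKM at 20, 60 and 180 min, also passed the filter only through its 0 min values. All 9 genes named here and in the paragraph before lost the call in at least 1 left-out fit, at adjusted p of 0.255 to 0.441 at most. After median-ratio scaling Lamtor4, Cdk5, Trim65, Zbtb12 and Tmem107 stayed below an adjusted p of 0.05, while Lpar5, Eid1, Oxld1 and Fam212a did not (0.0932, 0.0614, 0.108 and 0.0984). The second gene beside Pycard that kept the call in every left-out fit was Bmyc, named after its values were seen. It went from 1.11 and 2.21 to 0.230 and 0.130 FPKM (-2.60 ± 0.37, adjusted p = 0.00603), and its value at 20 min in replicate 2 was 1 read.

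The shares of genes called, given as a description, were highest in short genes. The median span was 9.88 kb for the genes that rose, 3.78 kb for those that fell and 16.2 kb for all genes tested. In genes under 10 kb, 3.28% of 2923 rose and 1.71% fell, in genes of 10 to 30 kb 2.52% of 2893 and 0.207%, and in genes of 30 to 100 kb 1.1% of 2007 and 0.0498%. Of 520 genes over 100 kb, 1 rose (0.192%) and 0 fell. It was Gsap, which spans 105.4 kb and went from 1.07 and 1.37 to 2.59 and 2.57 FPKM (1.03 ± 0.21, adjusted p = 0.0364, and 0.383 without 20 min replicate 1). The median change moved with span too, from -0.35 in the shortest class through -0.25 and -0.13 to -0.05 in the longest. The deposited level is a mean over the whole span, so a signal over part of a long gene is diluted in it. The part that span has in the calls was not tested.

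**Figure D4:**
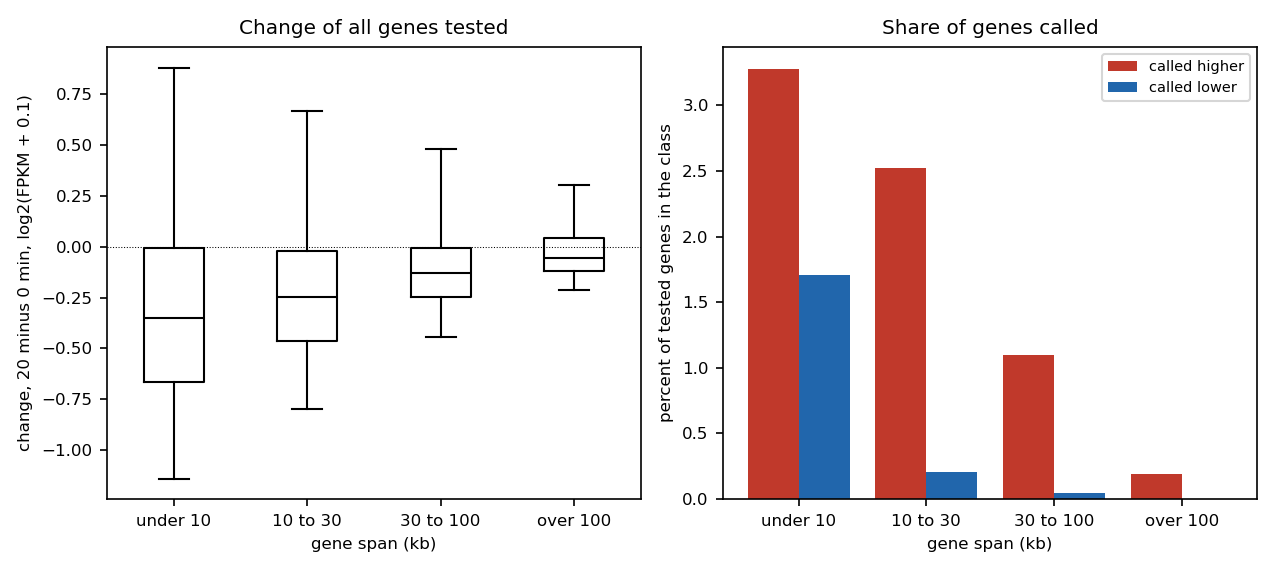
Change of all genes tested in 4 classes of gene span (left; box for the middle 50% with the median as a line, whiskers from the 5th to the 95th percentile) and the percent of tested genes called in each class (right). The median change lies nearest 0 in the longest genes, and the share of calls falls from the shortest to the longest class.

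Some of the genes that rose were neighbours. Of the 192, 34 (17.7%) had another gene of the 192 within 100 kb, against 528 of the 8343 tested genes (6.33%). Of the 57 that fell, 0 had another within 100 kb, against 3.22% of the tested genes. The clusters included Cxcl1 with Cxcl2 on chromosome 5, Ccl9, Ccl3 and Ccl4 (with Ccl6 between them not called) and Ccl2 with Ccl7 on chromosome 11, Clec4d with Clec4e on chromosome 6, Il1a with Il1b on chromosome 2, and Tnf with H2-D1 and H2-L on chromosome 17. H2-D1 and H2-L are near-identical and share their span, and how reads were split between such copies is not given. Close pairs such as Atp6v0c with Atp6v0c-ps2, Dusp2 with Astl and Icam1 with Icam4 are also counted. Whether 1 signal reaches both genes of a pair was not tested. In all, 23 of the 192 (12%) and 10 of the 57 (17.5%) overlapped another listed gene.

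The promoters of the genes were searched for motifs, as a description. RefSeq promoters of 300 bases, 250 before and 50 after the start, were matched for 6760 of the tested genes, among them 153 that rose and 45 that fell. The kappaB motif, searched by its standard consensus on both strands, lay in 38 of the 153 (24.8%) and in 20 of the 61 (32.8%) that rose by at least 2 log2 units, against 10.1% of the tested genes and 8.46% of all 32851 promoters of the table. In the 45 promoters of genes that fell it lay in 2 (4.44%). Genes with the motif included Cxcl1, Cxcl2, Sdc4, Tnfaip3, Nfkbia, Irf1, Tlr2, Nfkb2, Rel and Cxcl10, which has 3 matches. Il1b, Tnf, Socs3 and Ptgs2 had no match in this window, which says only that these letters are not there.

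The TATA box (TATAAA) lay in 16.3% of promoters of the genes that rose, 24.6% of those that rose by at least 2 log2 units, 6.67% of those that fell and 7.09% of the tested genes, with 13.6% over the whole table. Tnf, Il1b, Nfkbia, Tnfaip3, Fos, Junb, Icam1, Irg1 and Clec4e were among those with a match. The 80 bases printed above for Nfkbia and the 150 for Tnfaip3 hold no TATAAA on either strand, so their matches lie elsewhere in the window. The AP-1 motif (TGANTCA) lay in 9.8% of promoters of the genes that rose against 4.88% of those tested, and in 6.56% where the rise was at least 2 log2 units. For the CRE (TGACGTCA) the shares were 4.58% and 3.67%, and for the CArG box 1.96% (3 genes: Zfp36, Dusp5 and Anxa5) and 1.42%, so neither was far from the share of the tested genes. A CArG box can contain a TATA box, and other motifs can overlap at their ends. Promoters of genes that rose were also poorer in CpG: the ratio of observed to expected CpG had a median of 0.623, against 0.736 for genes that fell and 0.797 for those tested, and 51.6%, 71.1% and 76.5% of the promoters reached a ratio of 0.6. Base composition was not matched in these shares.

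The 20 min time point was the highest of the course for 50 of the 192 genes, while 105 had their highest mean at 60 min, 37 at 180 min and 0 at 0 min. Over all 8343 genes tested, 4419 were highest at 0, 639 at 20, 2035 at 60 and 1250 at 180 min. The counts of the 192 use the same 20 min libraries as the calls and are a description. The median level of the 192 genes was 2.32, 10.4, 17.2 and 11.6 FPKM at 0, 20, 60 and 180 min. In 25 genes both 20 min libraries were above all 4 later libraries, among them Egr1, Egr3, Fos, Jun, Btg2, Dusp1, Dusp4, Zfp36, Gdf15, Tnip3, Pmaip1, Id2 and Insig1. Egr1 was back at 2.81 and 7.26 FPKM at 60 min. Dusp1 was at 107.1 and 48.5 FPKM at 60 min, then at 46.6 and 35.1 FPKM at 180 min.

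In Fos, Jun and Gpr65, both 60 min libraries were below both 0 min libraries. Fos was at 11.2 FPKM in both 60 min libraries, after 140 and 152 FPKM at 20 min and 34.7 and 46.1 FPKM before LPS, and Jun at 7.16 and 9.42 FPKM. Other genes were higher at the later times than at 20 min. At 60 min Il1b stood at 116 and 186 FPKM, then at 261 and 166 FPKM at 180 min, Ptgs2 at 18.5 and 30.1 and then 128 and 103 FPKM, Irg1 at 210.4 and 382 and then 335 and 426 FPKM, and Socs3 at 69.9 and 40.5 and then 103 and 78.8 FPKM. Cd83 was highest at 60 min, at 62.3 and 79.4 FPKM, and at 15.3 and 8.61 FPKM at 180 min. Of the 57 genes that fell, the lowest mean was at 20 min in 13, at 60 min in 10 and at 180 min in 34. At 180 min, 3 of them were above their 0 min mean. Over all 8343 genes tested, 944 were lowest at 0, 1115 at 20, 1195 at 60 and 5089 at 180 min. Lpar5 went on to 0.148 and 0.016 FPKM at 60 min.

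**Figure D5:**
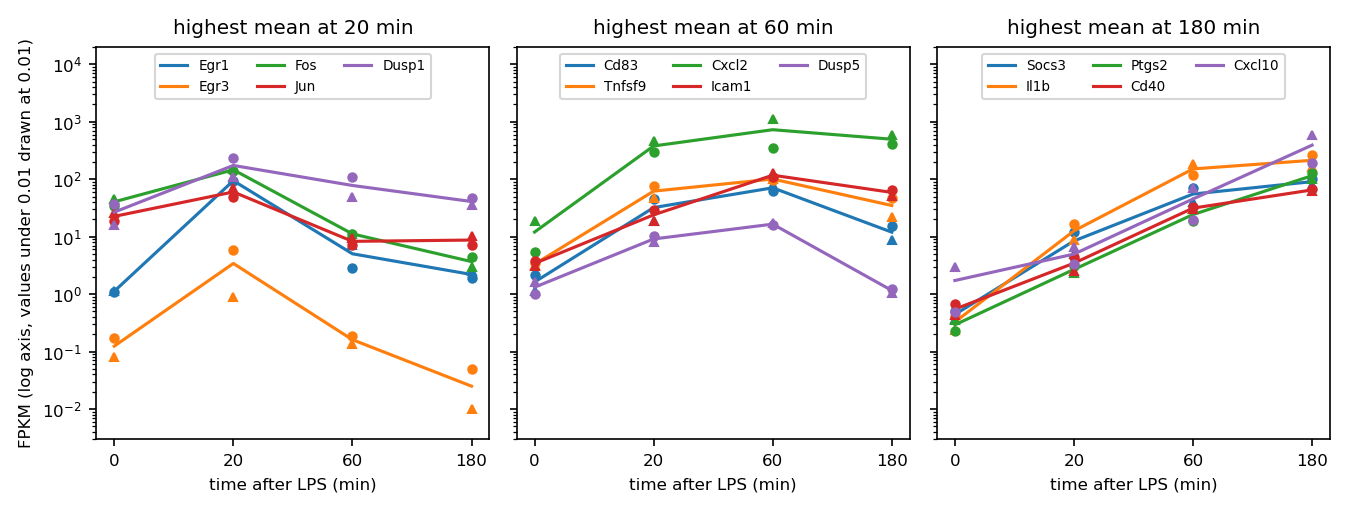
Level of 15 of the genes called higher at 0, 20, 60 and 180 min of LPS, as FPKM on a log axis, grouped by the time of the highest mean. Lines join the means of 2 libraries, circles are replicate 1 and triangles replicate 2, and values under 0.01 FPKM are drawn at 0.01. Fos and Jun lie below their 0 min level at 60 min, and Il1b, Ptgs2 and Socs3 have their highest mean at 180 min.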

How the data were processed

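The authors deposited FPKM for 22753 genes, with mm9 coordinates. Tools in the submitters' processing notes are HOMER 4.6 and 4.7, Bowtie2 2.0.5 and CASAVA 1.7, with no roles. The sources used here do not give strand handling, duplicate treatment, the base of coordinates or the FPKM total. The listed length was end minus start in 99.3% of genes, so FPKM are per whole span. The table also held 8 columns of per-sample values, which were not used. Depth was recovered from the FPKM steps of genes up to 4000 bases, where 97.9 to 100% of the values came out whole within 0.1 read (20% by chance). By this estimate 6 of the 8 libraries were below the 50 M reads that the labels state.

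Genes averaging 0.5 FPKM or more were fitted as log2(FPKM + 0.1), scaled no further, with limma 3.58.1 in R 4.3.3: 4 time points and the replicate number as a block, variance trend, moderated two-sided tests, Benjamini-Hochberg over the 8343 genes. The differences between replicates 1 and 2 correlated at 0.595 to 0.882 across genes between all 6 pairs of time points. Libraries of 1 number thus shared a difference from those of the other. Every replicate 1 library was also deeper than every replicate 2 library, so depth, batch and matched cells cannot be told apart in that difference. The fit was tested on data simulated with its own replicate difference and a normal spread, so that test cannot show whether the block is right. P-values measure the spread between these libraries, and with 2 per group they rest on a spread shared across genes.

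The 28 gene lists held 562 genes, of which 560 were listed and 465 tested. The comparison and lists were chosen with earlier results of these data known, so list counts and medians have no test. Named were the 15 higher and 10 lower calls with the largest change, with separate groups and a higher mean of at least 2 FPKM, and per list at most 4 called members, by change, and 2 others, by level. Tnf, Il1b, Il6, Nfkbia, Fos, Ccl4, Cxcl10, Ifnb1 and Actb were always included. Other genes, including further list members, Btg2, Tlr4, Bmyc, Gsap and cluster members, were named after their values were seen. Promoters came from the RefSeq table of GRCm38.p6, matched by accession, then symbol, taking the first listed.

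Alternatives were the fit without the block, median-ratio scaling, quantile normalization, pseudocounts of 0.01 and 1, filters of 0 and 1 FPKM, no or a robust variance trend, only the 0 and 20 min libraries, voom on recovered reads, and each library left out.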

Additional observations from a re-analysis of the deposited data

How the results depend on the processing

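The 192 higher and 57 lower calls became 9 and 0 with no replicate block (at unadjusted p under 0.05, 234 and 264), so the calls depend on the pairing. With no filter on low values, which tests 22753 genes, limma called 0 and 0 (unadjusted 641 and 1754, against 503 and 1139 with the filter). Counts were 328 and 239 after quantile normalization, 471 and 1334 with only the 0 and 20 min libraries, and 455 and 1122 with voom on recovered reads. All 192 and all 57 were among the calls of the last 2 fits. Lower calls were 25 with a pseudocount of 0.01, 369 with a pseudocount of 1 and 23 after median-ratio scaling, and the share of higher genes among the calls was 87.9%, 36.9% and 88.0%. With each library left out, counts were 67 to 198 higher and 6 to 101 lower. The median change of -0.20 was -0.0244 with no filter, 0.0121 after median-ratio scaling, 0.00944 after quantile normalization and -0.348 to -0.0589 with a library left out. Quantile normalization reversed the changes of 3 genes that were not called, Actb (-0.367), Atf4 (-0.405) and Cd68 (-0.167). All 112 named genes with a call kept their direction under every alternative run. These runs reused the same libraries, in which every called gene already had the same direction in both replicate pairs, so this is no independent support. Of these calls, 103 were lost with no replicate block, 112 with no filter, 17 after median-ratio scaling, 7 after quantile normalization, and 3 to 58 with a library left out, the most without 20 min replicate 1. Replicate 2 had 9.17 and 9.14 M reads at 0 and 20 min, so that low values such as those of Egr3, Il1a, Socs3 and Bmyc rest on 2, 4, 11 and 1 reads.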

Other observations

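Of the 192 genes that rose, 98 lay in none of the 28 lists. Ehd1, which drives endosome recycling, was at 2.24 and 2.45 FPKM before and 22.7 and 13.9 FPKM after LPS (2.87 ± 0.26, limma adjusted p = 0.000738). Plek, a substrate of protein kinase C in blood cells, was at 4.82 and 5.94 and then 37.7 and 31.0 FPKM (2.65 ± 0.27, adjusted p = 0.00151). Sqstm1, the autophagy receptor p62, was at 14.2 and 11.7 and then 92.0 and 61.1 FPKM (2.53 ± 0.27, adjusted p = 0.00154), and Mapkapk2, the kinase downstream of p38 that controls Tnf mRNA through Zfp36, at 3.5 and 3.34 and then 23.5 and 14.4 FPKM (2.40 ± 0.25, adjusted p = 0.00154). Kdm6b, a demethylase of H3K27, was at 0.747 and 0.921 and then 5.91 and 2.93 FPKM (2.20 ± 0.38, adjusted p = 0.0168). The groups were separate in all 5. Ehd1, Plek, Sqstm1 and Mapkapk2 kept the call in every left-out fit, and Kdm6b had an adjusted p of 0.185 without 20 min replicate 1. None of the 5 was called in the limma fit with no replicate block (adjusted p from 0.0669 to 0.233).

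Astl, an egg-specific protease by its known expression, had 0.150 and 0.046 FPKM before and 2.66 and 0.846 FPKM after LPS (3.08 ± 0.31, adjusted p = 0.00143), with 8 reads behind the lowest value, and kept the call in every left-out fit. Its listed start, chromosome 2 at 127164375, follows the end of Dusp2 at 127164113 on the same strand. Dusp2 rose by 3.09 ± 0.43 (adjusted p = 0.00548). Reads of the 2 genes were not separated here beyond the listed spans.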
